A study of Mus musculus with 6 samples.

Results

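Cytochrome P450 enzymes are haem proteins that insert an oxygen atom into lipids, steroids, vitamins and drugs, and the Cyp gene family that encodes them is named by family number and subfamily letter. Families with low numbers mostly act on foreign compounds and fatty acids, the Cyp4 family oxidises the far end of fatty acids and eicosanoids, and families with high numbers make or break down bile acids, steroid hormones, vitamin D and retinoic acid. The liver holds most P450 protein, but the gut lining also expresses many members and is the first tissue that an oral drug meets. The genes described here were all rows of the expression table whose symbol begins with Cyp and a digit, apart from Cyp2c55, Cyp2c65, Cyp2c66, Cyp1a1, Cyp1b1 and Cyp51, which were left out by the rule of choice. This gave 73 of the 18268 genes in the table.

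RNA was sequenced from the colorectum of 6 adult male C57BL/6 mice that all drank dextran sulfate sodium (DSS), which damages the epithelium and causes colitis, for 7 days. For 6 days 3 of them were also given berberine (BBR), a plant alkaloid, and the other 3 sulfasalazine (SASP), a drug used against colitis, both by gavage and each drug at its own dose. The comparison asks which genes differ between these treatments of the same injury. The labels give 1 tissue for all mice, whereas the study speaks of rectum for its BBR experiment and of colon for SASP, so drug and gut region cannot be told apart if the pieces differed. Mice without a drug were not analysed here, so a gene that is higher under BBR cannot be told apart from one that is lower under SASP. Mice are numbered 1 to 3 within a group as names only. Values are FPKM, the fragments mapped to a gene scaled by its transcript length and by the mapped reads of the library. A gene was tested when it reached 1 FPKM in at least 3 of the 6 mice, as 12072 genes did, with limma on log2(FPKM + 1), and a call means an adjusted p under 0.05 over all these genes. A log2 fold change is BBR minus SASP on that scale, which understates changes of low genes. An exact permutation test of 3 against 3 cannot go below p = 0.10.

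Of the 73 P450 genes 22 were tested, 9 reached 1 FPKM in at least 1 mouse without passing the filter, and 42 stayed under 1 FPKM in all 6 mice. Only 3 of the 22 passed the threshold, all of the Cyp4 family: Cyp4f13 and Cyp4f17 were higher and Cyp4f40 was lower in BBR than in SASP mice. That is near the background, since 8.86% of all genes tested were called. By direction, 2 members were called higher against 3.82% of all genes, and 1 was called lower against 5.04%. The log2 fold change was above 0 in 15 members and below 0 in 7, with a median of 0.25 beside 0.10 for all genes tested. BBR and SASP values did not overlap in 8 of 22 members, against 37.9% of all genes. BBR lay above in 7 of them, against 21.3% of all genes, and below in 1, against 16.6%.

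The number of genes at 1 FPKM or more was similar among libraries, from 11518 to 12307. If the values of short genes detected in 1 library only stood for 1 read each, depth was about 16.4 to 18.2 M reads per library. BBR mouse 3 stood apart from its group, with a correlation across genes of log2(FPKM + 1) of 0.953 and 0.949 to BBR mice 1 and 2, which correlated at 0.987 with each other. The correlation of BBR mouse 3 to SASP mice 1 to 3 was 0.920, 0.953 and 0.944. P450 genes whose call depends on this mouse are given with and without it. The 9 colon markers were all tested, and 7 had a positive log2 fold change. Only Cdx2 was called, higher in BBR mice (limma adjusted p = 0.0422), at 22.85, 11.85 and 19 against 4.69, 9.13 and 3.74 FPKM. Car1 lay above and Krt20 below in BBR mice without overlap, but neither was called (limma adjusted p = 0.0950 and 0.0613). The 6 goblet cell markers, none called, summed to 13418, 11674 and 23594 FPKM under BBR and 9791, 15021 and 13979 FPKM under SASP. The summed level of 6 epithelial markers was 4835 to 5602 FPKM, with 1 marker called higher (Krt18) and 1 lower (Vil1) in BBR mice. All 6 smooth muscle markers had a positive log2 fold change, with summed levels of 2730, 2794 and 6490 FPKM under BBR and 689, 2173 and 1580 FPKM under SASP. Fibroblast markers summed to 178, 251 and 179 against 78.7, 144 and 135 FPKM. Of these markers 3 of 6 were called higher, against 3.82% of all genes tested. Leukocyte markers summed to 11.8 to 15.5 FPKM under BBR and 16.2 to 21.9 FPKM under SASP. In such bulk tissue, fewer cells of a type and less RNA per cell cannot be told apart, and the part of these cell types in the P450 values was not tested. Of 6 hepatocyte markers 5 were in the table and 2 were tested, 1 of them called lower in BBR mice, while the defining marker Alb was at most 0.35 FPKM in any mouse.

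**Figure D1:**
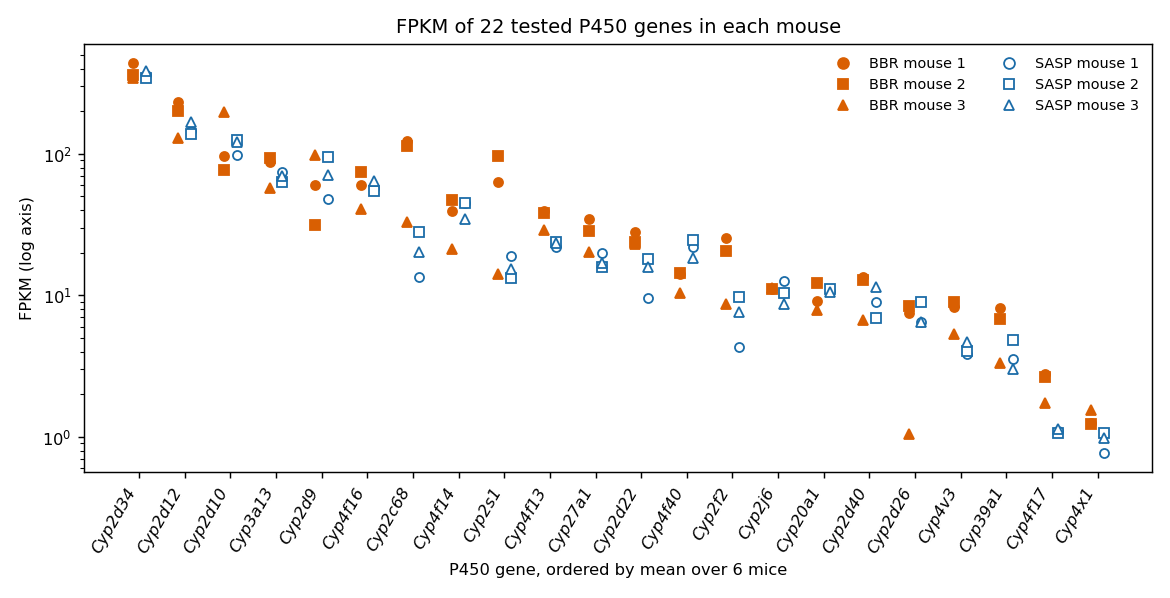
FPKM on a log axis of the 22 tested P450 genes in each mouse, ordered from left to right by the mean over 6 mice, with filled orange symbols for BBR and open blue symbols for SASP mice. Cyp2d34 was the most abundant in every mouse, and the 3 BBR mice lay above the 3 SASP mice in 7 genes, Cyp2c68 among them.

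The Cyp4f genes turn fatty acids and inflammatory eicosanoids such as leukotriene B4 into less active hydroxylated forms. In mouse they lie side by side on chromosome 17, where RefSeq lists, in order of position, Cyp4f39, Cyp4f17, Cyp4f16, Cyp4f37, Cyp4f40, Cyp4f15, Cyp4f14 and Cyp4f13, and Cyp4f18 lies alone on chromosome 8. Members of this cluster differed in opposite directions. Cyp4f13 (gene ID 170716) was at 39.2, 38.5 and 29.0 FPKM in BBR mice 1 to 3 and at 21.8, 24.0 and 23.3 FPKM under SASP 1 to 3. Every BBR mouse lay above every SASP mouse, with means of 35.6 ± 5.68 and 23.0 ± 1.12 FPKM (SD, n = 3 each), a 1.55-fold difference. The log2 fold change was 0.60 (limma SE 0.14, adjusted p = 0.0444).

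Cyp4f40 (631304) went the other way, at 14.1, 14.3 and 10.5 FPKM under BBR and 21.95, 24.52 and 18.49 FPKM under SASP. The groups did not overlap, and the means were 13.0 ± 2.17 and 21.7 ± 3.03 FPKM (SD, n = 3 each). Its log2 fold change was -0.70 (limma SE 0.16, adjusted p = 0.0446). This was the only tested P450 gene with all BBR values below all SASP values. Cyp4f17 (208285), a low member of the cluster, was at 2.78, 2.66 and 1.74 FPKM under BBR and at 1.10, 1.06 and 1.13 FPKM under SASP. The SASP values differed by less than 0.1 FPKM among themselves, and the BBR mean of 2.39 ± 0.569 FPKM was 2.18-fold the SASP mean of 1.10 ± 0.0351 FPKM (SD, n = 3 each). The log2 fold change of 0.68 (limma SE 0.16, adjusted p = 0.0489) became 1.03 and 1.09 with a pseudocount of 0.1 or 0.01, where the adjusted p was 0.0501 and 0.0512.

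The stretches before the annotated starts of Cyp4f13 and Cyp4f40 are shown because these neighbours differed in direction, and that of Cyp2c68 because it had the largest log2 fold change of the tested members. They are RefSeq sequences of GRCm38.p6, written 5′ to 3′ on the strand of the gene. Capitals mark matches on either strand to 6 motifs, which were chosen with the values known: the core promoter letters TATAAA, the aryl hydrocarbon receptor core GCGTG, the nuclear receptor core AGGTCA, the HNF4 site CAAAGTCCA, the HNF1 letters GTTAAT and the CDX letters TTTATG. The motifs do not contain one another.
Cyp4f13, chr17:32947362-32947611, minus strand: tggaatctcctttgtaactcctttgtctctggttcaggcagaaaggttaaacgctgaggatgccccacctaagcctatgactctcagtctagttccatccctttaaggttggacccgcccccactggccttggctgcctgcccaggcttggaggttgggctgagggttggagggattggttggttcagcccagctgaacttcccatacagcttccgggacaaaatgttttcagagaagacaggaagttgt
Cyp4f40, chr17:32658636-32658885, plus strand: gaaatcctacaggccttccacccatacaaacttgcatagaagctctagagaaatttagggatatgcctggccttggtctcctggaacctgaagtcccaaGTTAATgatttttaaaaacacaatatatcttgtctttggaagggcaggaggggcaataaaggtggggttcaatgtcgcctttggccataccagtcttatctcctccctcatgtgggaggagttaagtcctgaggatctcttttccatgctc
Cyp2c68, chr19:39741102-39741351, minus strand: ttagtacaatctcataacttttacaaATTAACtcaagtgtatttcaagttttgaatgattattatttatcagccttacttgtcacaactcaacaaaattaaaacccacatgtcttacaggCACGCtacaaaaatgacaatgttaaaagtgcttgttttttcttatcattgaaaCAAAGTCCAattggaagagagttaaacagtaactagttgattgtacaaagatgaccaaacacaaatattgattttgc
The Cyp4f13 stretch held none of the 6 motifs, and that of Cyp4f40, the first of 2 listed starts, held GTTAAT 151 bases before the start, a motif found in 6.52% of all 27025 promoters in the table. In the stretch of Cyp2c68, CAAAGTCCA lay 77 bases before the start, the aryl hydrocarbon receptor core 130 bases before it on the other strand, and GTTAAT 224 bases before it, also on the other strand. The aryl hydrocarbon receptor core was found in 28.2% of all promoters and CAAAGTCCA in 0.381%. These matches are a description of letters and not of binding.

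The most abundant members of the cluster had the smallest log2 fold changes. Cyp4f16 was at 60.01, 74.66 and 40.8 FPKM under BBR and 57.3, 55.1 and 64.4 FPKM under SASP, so BBR mice lay on both sides of the SASP range. Its log2 fold change was -0.05 with a 95% interval from -0.55 to 0.45 (limma adjusted p = 0.886). Cyp4f14, an enzyme that inactivates leukotriene B4, was at 39.7, 47.4 and 21.3 against 45.1, 45.0 and 34.8 FPKM, with a log2 fold change of -0.26 (limma adjusted p = 0.547). BBR mouse 3 was the lowest of the 6 mice for both genes. Summed over the 9 Cyp4f genes, the level was 147 ± 38.3 FPKM under BBR and 148 ± 3.98 FPKM under SASP (SD, n = 3 each), so the called members differed within a sum that overlapped. The family sums were computed after the values had been seen.

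Cyp4v3, a fatty acid hydroxylase whose human counterpart is mutated in a crystalline retinal dystrophy, was at 8.22, 8.94 and 5.34 FPKM under BBR and 3.83, 4.05 and 4.68 FPKM under SASP. All BBR values were above all SASP values, but the log2 fold change of 0.69 (SE 0.19) missed the threshold at a limma adjusted p of 0.0669. Cyp4x1 was at 1.26, 1.24 and 1.55 against 0.77, 1.06 and 0.98 FPKM, again without overlap, and also missed it (0.28, limma adjusted p = 0.208). Among the untested members of the family, Cyp4b1, which oxidises fatty acids and activates some lung toxins, was at 1.22, 2.11 and 0.72 FPKM under BBR and 0.16, 0.30 and 0.43 FPKM under SASP. Cyp4f18, the leukotriene-oxidising enzyme of neutrophils, was at 0.70, 0.45 and 0.61 against 1.47, 1.15 and 0.81 FPKM. Neither gene overlapped between groups, with Cyp4b1 above and Cyp4f18 below in BBR. The 7 Cyp4a genes, the classical targets of the fatty acid receptor PPAR-alpha, summed to at most 0.45 FPKM in any mouse.

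**Figure D2:**
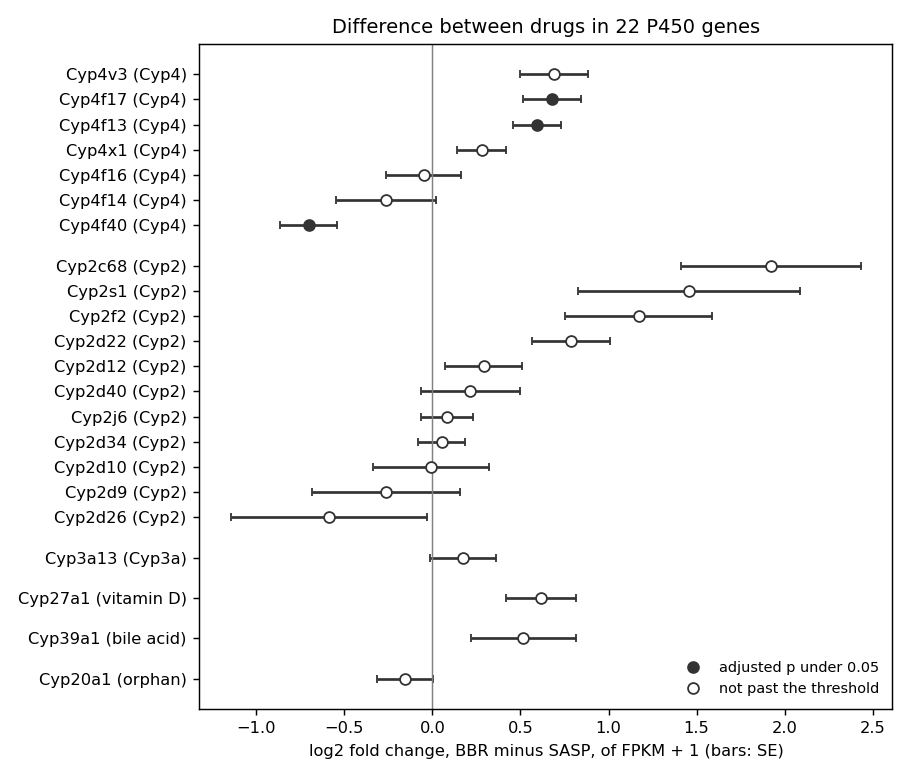
The log2 fold change (BBR minus SASP, of FPKM + 1) of the 22 tested P450 genes is drawn with its SE as a bar, grouped by role, and filled circles pass the adjusted threshold. The filled circles are Cyp4f17 and Cyp4f13 at 0.68 and 0.60 and Cyp4f40 at -0.70, while the Cyp2 genes Cyp2c68 and Cyp2s1 lie farther from 0 with wide bars.

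The Cyp2 genes are the largest group, with 33 members, and oxidise drugs, arachidonic acid and other lipids. Of them 11 were tested, 5 more reached 1 FPKM in some mouse and 17 stayed under it. No Cyp2 gene passed the threshold in limma, and at an unadjusted p under 0.05, which 31.8% of all genes passed, Cyp2c68, Cyp2d22 and Cyp2f2 did. Cyp2c68, of the subfamily that makes epoxides of arachidonic acid, had the largest log2 fold change of the 22 tested members. It was at 122.96, 113.42 and 33.2 FPKM under BBR and at 13.5, 28.2 and 20.2 FPKM under SASP. BBR mice 1 and 2 stood far above the rest, and BBR mouse 3 was close to the highest SASP mouse. The means were 89.9 ± 49.3 and 20.6 ± 7.37 FPKM (SD, n = 3 each), a 4.36-fold difference. Its log2 fold change of 1.92 (SE 0.51, 95% interval 0.71 to 3.13) missed the threshold at a limma adjusted p of 0.0613. Of 6 fits without 1 mouse it passed in 1, without BBR mouse 3 (2.52, limma adjusted p = 0.00301), where 33.6% of all genes were called. The adjusted p reached 0.197 in the others. Of 8 other settings it passed in 3, with median-ratio scaling (1.79, 0.0471), quantile normalization (1.95, 0.0496) and array weights (2.50, 9.1e-05). These settings called 1683, 1728 and 7126 of all genes, against 1069 in the reported fit. The adjusted p reached 0.0979 in the remaining settings.

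Cyp2c genes are near copies of each other, and 43.3% of the 50-base stretches of the Cyp2c68 transcript also occur in another gene, mostly Cyp2c40. Its value therefore depends on how the authors' counting shared such reads. Cyp2c69, of which 54.8% of stretches are shared, was also above in BBR, at 2.67, 1.22 and 0.87 FPKM against 0.05, 0.38 and 0 FPKM, and was not tested. Summed over the 6 Cyp2c members, which does not depend on the split among these genes, the level was 128, 116 and 35.2 FPKM under BBR and 13.9, 30.2 and 20.9 FPKM under SASP. The summed groups did not overlap either. Cyp2c23, an epoxygenase best known from the kidney, was at 1.27, 0.76 and 0.84 against 0.20, 1.15 and 0.48 FPKM. The CAAAGTCCA motif was present in 6 of the 54 P450 promoters in the table (11.1%) and in 0.381% of all promoters. These windows are shown because 4 of them, from Cyp2c67, Cyp2c68, Cyp2c40 and Cyp2c69, are close copies around the motif, which is in capitals, on the strand of each gene in GRCm38.p6.
Cyp8b1, chr9:121916344-121916392, minus strand: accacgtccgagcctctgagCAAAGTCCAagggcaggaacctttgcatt
Cyp2c67, chr19:39649139-39649187, minus strand: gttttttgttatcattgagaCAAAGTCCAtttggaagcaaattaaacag
Cyp2c68, chr19:39741150-39741198, minus strand: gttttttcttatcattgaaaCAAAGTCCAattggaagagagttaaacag
Cyp2c40, chr19:39812831-39812879, minus strand: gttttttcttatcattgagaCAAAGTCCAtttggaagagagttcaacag
Cyp2c69, chr19:39886816-39886864, minus strand: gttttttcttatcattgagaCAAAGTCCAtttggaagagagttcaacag
Cyp2c70, chr19:40187322-40187370, minus strand: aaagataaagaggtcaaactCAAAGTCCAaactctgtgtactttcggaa
The related promoters are not independent, and 4 of the 6 genes (Cyp8b1, Cyp2c67, Cyp2c40 and Cyp2c70) were under 1 FPKM in all mice. The share of copied stretches was 72.1% for Cyp2c40 and 52.8% for Cyp2c67, so their levels also depend on how shared reads were split.

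Cyp2s1, an epithelial enzyme that oxidises eicosanoids and retinoic acid, had the next largest log2 fold change. It was at 63.5, 96.4 and 14.1 FPKM under BBR and 18.9, 13.2 and 15.3 FPKM under SASP. BBR mice 1 and 2 were again far above all others, while BBR mouse 3 lay within the SASP range. The log2 fold change was 1.46 (limma SE 0.63, adjusted p = 0.164) with all mice and 2.25 (0.00204) without BBR mouse 3. Cyp2f2, known for activating naphthalene in the airway, had the same shape, at 25.6, 20.7 and 8.69 against 4.30, 9.73 and 7.59 FPKM (log2 fold change 1.17, limma SE 0.42, adjusted p = 0.110). Without BBR mouse 3 it was 1.61 (0.0115). The share of copied stretches was 0% for both genes.

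Cyp2d genes, of the subfamily that holds a main drug-metabolising enzyme of the human liver, made up most of the FPKM summed over the 73 genes. The P450 genes left out by the rule of choice are not in this sum. Cyp2d34 held 32.1% of the FPKM summed over all 73 genes, Cyp2d12 14.6% and Cyp2d10 10.3%. Cyp2d34 was at 435, 359 and 341 FPKM under BBR and 360.0, 345 and 385 FPKM under SASP. The groups overlapped, with a log2 fold change of 0.05 and a 95% interval from -0.26 to 0.37 (limma adjusted p = 0.804). Cyp2d12 was at 234, 199 and 130.02 against 144, 138 and 167 FPKM (0.29, limma adjusted p = 0.384). Cyp2d10 was at 96.2, 77.2 and 197 against 98.5, 125 and 121 FPKM (-0.01, limma adjusted p = 0.989), and Cyp2d9 at 60.01, 31.4 and 98.2 against 47.9, 94.7 and 71.3 FPKM (-0.26, limma adjusted p = 0.690). BBR mouse 3 was highest for Cyp2d10 and Cyp2d9 and lowest for Cyp2d12.

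The make-up of the subfamily varied among the BBR mice. Cyp2d10 was 24.7% of the Cyp2d sum in BBR mouse 3 and 10.8% to 16.96% in the other mice. The sum over 8 Cyp2d genes was 875, 713 and 797 FPKM under BBR and 676, 736 and 778 FPKM under SASP, with means of 795 ± 81.2 and 730 ± 51.3 FPKM (SD, n = 3 each) that overlap. Shared stretches were 40.5% for Cyp2d10, closest to Cyp2d11, and 29.0% for Cyp2d9, so their split is uncertain. The share was 5.14% for Cyp2d34 and 7.11% for Cyp2d12. Cyp2d22, at one end of the Cyp2d cluster on chromosome 15, was at 28.0, 23.9 and 23.0 FPKM under BBR and 9.59, 18.0 and 15.8 FPKM under SASP. It was the only tested Cyp2d gene whose groups did not overlap, with means of 25.0 ± 2.65 and 14.4 ± 4.34 FPKM and a log2 fold change of 0.79 (limma SE 0.22, adjusted p = 0.0675).

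**Figure D3:**
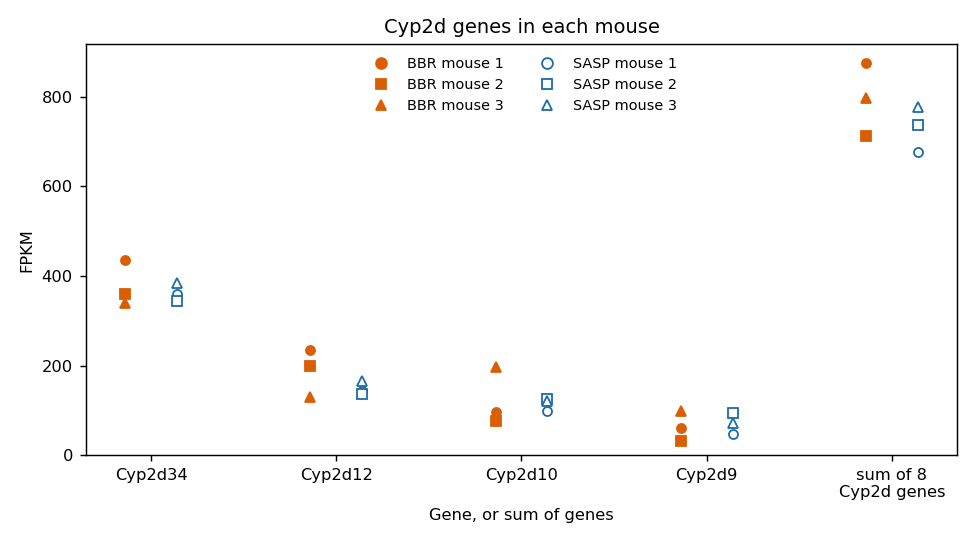
FPKM of the 4 most abundant Cyp2d genes and of the sum of 8 Cyp2d genes in each mouse, with filled orange symbols for BBR and open blue symbols for SASP mice. BBR mouse 3 (orange triangle) was highest for Cyp2d10 at 197 FPKM and lowest for Cyp2d12 at 130.02 FPKM, while its sum of 797 FPKM lay between those of the other BBR mice.

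The remaining tested Cyp2 genes overlapped between groups. Cyp2j6, of a subfamily of arachidonic acid epoxygenases, was steady at 11.1 to 11.2 FPKM under BBR and 8.66 to 12.7 FPKM under SASP (log2 fold change 0.08, limma adjusted p = 0.713). Cyp2d40 was at 10.99 ± 3.72 against 9.11 ± 2.27 FPKM (0.22, limma adjusted p = 0.617), and Cyp2d26 at 5.67 ± 4.02 against 7.32 ± 1.45 FPKM (SD, n = 3 each; -0.59, limma adjusted p = 0.489). The spread of Cyp2d26 came from BBR mouse 3, at 1.05 FPKM beside 7.56 and 8.40 FPKM, and its log2 fold change was 0.12 without that mouse. Among the low members, Cyp2j9 was at 0.71, 1.72 and 1.77 FPKM under BBR and 0.68, 0.85 and 0.92 FPKM under SASP, and Cyp2w1, a P450 of fetal gut and colon tumours, at 1.18, 1.2 and 0.05 against 0.24, 0.13 and 0.15 FPKM. Cyp2u1, which oxidises long fatty acids, was under 1 FPKM throughout but did not overlap, at 0.74, 0.62 and 0.30 against 0.09, 0.13 and 0.27 FPKM.

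Cyp2e1, the ethanol-oxidising P450 of the liver, was high in single mice of both groups. It was at 0.12, 9.41 and 0.21 FPKM under BBR and 0.11, 0.02 and 2.91 FPKM under SASP. The adipocyte gene Adipoq had the same 2 mice on top, at 0.09, 6.85 and 0 against 0, 0 and 1.84 FPKM. So did Plin1, the coat protein of fat droplets, at 0.03, 1.58 and 0 against 0, 0 and 0.42 FPKM. The 5 adipocyte markers summed to 10.4, 58.9 and 19.1 FPKM under BBR and 5.13, 11.8 and 26.6 FPKM under SASP, and the part of fat cells in the Cyp2e1 values was not tested. Cyp11a1, which starts steroid hormone synthesis from cholesterol, was at 0.81, 3.85 and 0.13 against 0.06, 0.22 and 0.41 FPKM, highest in BBR mouse 2 as well.

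**Figure D4:**
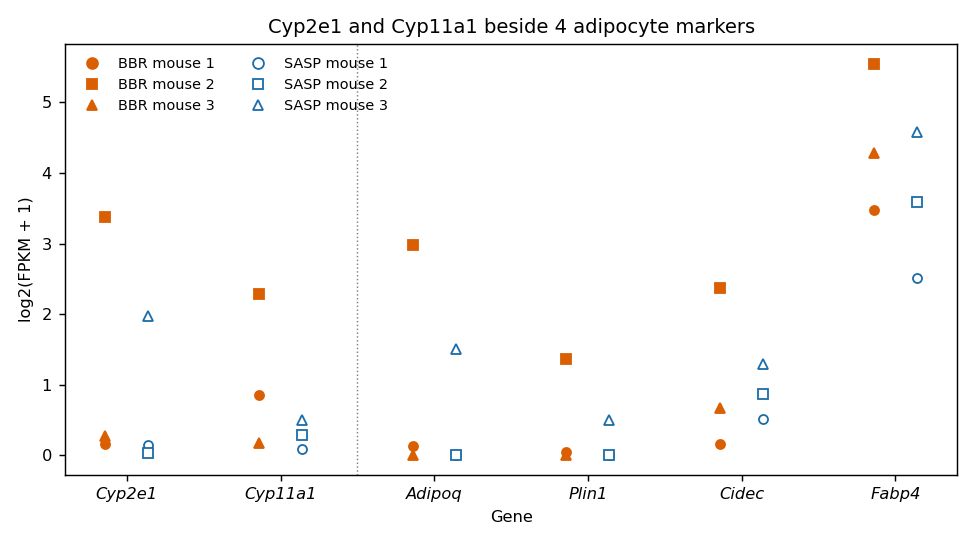
log2(FPKM + 1) of Cyp2e1 and Cyp11a1, left of the dotted line, and of 4 adipocyte markers, right of it, in each mouse. BBR mouse 2 (orange square) was highest for all 6 genes, and SASP mouse 3 (blue triangle) was next for Cyp2e1, Adipoq, Plin1, Cidec and Fabp4.

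Of the 4 Cyp3a genes, which oxidise drugs and steroids, only Cyp3a13 was expressed above 1 FPKM. It was at 87.8, 92.7 and 57.8 FPKM under BBR and 74.2, 63.4 and 69.5 FPKM under SASP. BBR mouse 3 was the lowest and the other BBR mice the highest of the 6, and the log2 fold change was 0.17 with a 95% interval from -0.27 to 0.62 (limma adjusted p = 0.546). It was 0.38 (0.0250) without BBR mouse 3.

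Among the genes with defined roles in sterol and vitamin metabolism, Cyp27a1 stood out by level. This mitochondrial enzyme oxidises the sterol side chain in bile acid synthesis and can also activate vitamin D. It was at 34.6, 28.7 and 20.4 FPKM under BBR and 19.8, 15.9 and 16.8 FPKM under SASP. The groups did not overlap, and the log2 fold change was 0.62 (limma SE 0.20, adjusted p = 0.0878). Cyp2r1, the main vitamin D activator of the liver, was at 0.69, 0.70 and 0.59 against 0.86, 1.24 and 0.95 FPKM, below in BBR and not tested, and Cyp27b1, which makes the active hormone, was at most 0.10 FPKM. Cyp39a1, an oxysterol hydroxylase of bile acid synthesis, was at 6.12 ± 2.50 against 3.81 ± 0.946 FPKM (SD, n = 3 each; 0.52, limma adjusted p = 0.267). The classical bile acid genes were near the limit of detection, with Cyp7a1, the rate-limiting enzyme, at most at 0.05 FPKM, where 1 read is worth about 0.0133 to 0.0395 FPKM depending on the gene. The 3 retinoic acid-degrading Cyp26 genes and 4 of 5 steroid hormone genes were also under 1 FPKM in every mouse. Cyp20a1, an orphan P450 with no settled substrate, was at 9.75 ± 2.18 against 10.8 ± 0.327 FPKM (-0.15, limma adjusted p = 0.526).

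Among the 42 members under 1 FPKM in all mice the highest single value was 0.94 FPKM, for Cyp2c67 in BBR mouse 1, and 21 stayed under 0.1 FPKM. None was listed at 0 in all 6 mice. Besides Cyp2u1, the values of Cyp7a1 and of Cyp46a1, a cholesterol hydroxylase of the brain, lay above in BBR without overlap, and those of Cyp4a30b and Cyp4a10 below. That is 3 above and 2 below of 42, and the share among all genes at this level was not counted. The differences of Cyp7a1, Cyp46a1, Cyp4a30b and Cyp4a10 rest on a few reads. For Cyp2u1, 1 read is worth about 0.0136 FPKM.

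Leaving out BBR mouse 1, BBR mouse 2 or any 1 of the SASP mice left 0 of 22 members past the threshold in limma. In each of these fits 6 to 8 members had an unadjusted limma p under 0.05, where the share of all genes was not counted. With all mice 8 of 22 members and 31.8% of all genes had such a p. Few genes of any kind were called in the 5 fits, 1.1% without BBR mouse 1 and 3.11% without BBR mouse 2. Without SASP mouse 1, 2 or 3 it was 1.05%, 4.32% and 0.795%, so 0 of 22 is near the background. In these 5 fits the adjusted p of Cyp4f13 lay between 0.0908 and 0.165, that of Cyp4f40 between 0.0819 and 0.160, and that of Cyp4f17 between 0.115 and 0.161. Their log2 fold changes kept their sign, from 0.52 to 0.62 for Cyp4f13, from -0.81 to -0.61 for Cyp4f40 and from 0.60 to 0.69 for Cyp4f17. Without BBR mouse 3, 12 members were called, 11 of them higher, where 33.6% of all genes were called and 22.2% were called higher. They were the 3 genes above with Cyp2c68, Cyp2s1, Cyp2f2, Cyp3a13, Cyp2d12, Cyp2d22, Cyp4v3, Cyp27a1 and Cyp39a1, and the median over all 22 was 0.45. Of those without a value above, Cyp4v3 was at 0.89 (limma adjusted p = 0.00490), Cyp2d22 at 0.84 (0.0447) and Cyp2d12 at 0.53 (0.0204) in this fit. Cyp27a1 was at 0.82 (0.00806) and Cyp39a1 at 0.84 (0.0195).

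**Figure D5:**
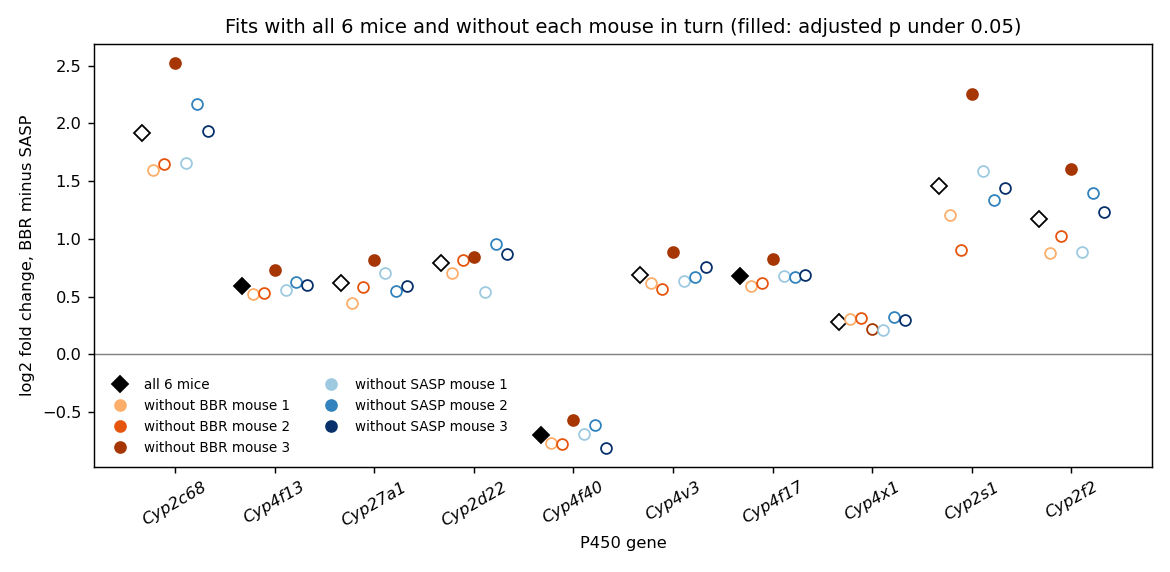
The log2 fold change (BBR minus SASP) of 10 P450 genes, the 8 whose groups did not overlap and Cyp2s1 and Cyp2f2, with all 6 mice (black diamonds) and without each mouse in turn (circles), filled where the adjusted p was under 0.05. Without BBR mouse 3 all but Cyp4x1 were filled, and without any other mouse none was.

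P450 enzymes need partner proteins for electrons and haem. Of 21 such genes 19 were tested, 2 were called higher and 1 lower, with a median log2 fold change of 0.13. Por, the reductase that feeds electrons to P450s of the endoplasmic reticulum, was at 51.7, 43.5 and 50.5 FPKM under BBR and 18.7, 34.6 and 24.1 FPKM under SASP, a log2 fold change of 0.93 (limma SE 0.21, adjusted p = 0.0445). Cyb5r3, the reductase that passes electrons to cytochrome b5, was at 52.1, 54.1 and 49.4 against 32.1, 41.5 and 31.4 FPKM (0.57, SE 0.13, limma adjusted p = 0.0441). In both genes every BBR mouse was above every SASP mouse. Cyb5b, the most abundant of the list, was at 78.4 ± 4.11 FPKM under BBR and 78.5 ± 6.37 FPKM under SASP (log2 fold change 0.00, limma adjusted p = 0.997), and Alas1, the entry enzyme of haem synthesis, overlapped (-0.13, 0.517).

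Genes around the substrates of P450s were described in the same way. Of 22 genes of retinoic acid synthesis and signalling 14 were tested and 1 was called, Dhrs3, which returns retinaldehyde to retinol, at 28.0, 32.6 and 24.5 against 15.7, 20.6 and 13.0 FPKM (0.77, limma adjusted p = 0.0488). The most abundant of them, the retinol-oxidising Adh1, was at 1122, 1101 and 524 FPKM under BBR and 388, 504 and 472 FPKM under SASP. It did not overlap but missed the threshold (0.93, limma adjusted p = 0.0932), and the list's median was 0.36. Without BBR mouse 3, where 33.6% of all genes were called, Adh1 (1.30, limma adjusted p = 0.00254), Dhrs3, Rara and Rarg were called higher. In that fit Dhrs9 (-3.06, limma adjusted p = 0.00254), Rdh9 (-1.44, 0.0153), Rdh16 (-0.84, 0.00923) and Rdh10 (-0.37, 0.0245) were called lower. With all mice the lower genes overlapped between groups. Of 10 PPAR-alpha partners of Cyp4a, 8 were tested and Acadm, an enzyme of fatty acid oxidation, was called, at 89.6, 78.6 and 62.0 against 46.4, 45.0 and 41.2 FPKM (0.77, limma adjusted p = 0.0291). The median of the 8 was 0.38.

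Bile acid genes were the only partner list with a negative median, -1.08, over 4 tested of 9. Slc51b, a subunit of the bile acid exporter, was at 8.58, 6.73 and 24.6 FPKM under BBR and 145, 48.7 and 71.9 FPKM under SASP. All BBR values were below all SASP values (log2 fold change -2.71, limma SE 0.54, adjusted p = 0.0324). Its mean over all 6 mice was the highest of the list, though in the BBR mice Nr1h4 was higher, at 34.4, 28.9 and 59.9 FPKM. Slc51a, the other subunit of the exporter, was at most at 0.07 FPKM in any mouse. The bile acid receptor Nr1h4 overlapped between groups (-0.54, limma adjusted p = 0.187), with BBR mouse 3 the highest of the 6 mice. Without that mouse Nr1h4 was at -0.84 (limma adjusted p = 0.00384). None of 5 tested vitamin D genes was called by limma with all mice, and none had an unadjusted p under 0.05. Without BBR mouse 3, 2 of them were called, where 33.6% of all genes were called. The receptor Vdr, the most abundant, was at 174, 168 and 57.1 against 91.6, 88.0 and 97.7 FPKM, so BBR mouse 3 lay below and the other BBR mice above the SASP range (0.36, limma adjusted p = 0.562). Without BBR mouse 3 it was 0.88 (0.00192), and Rxrb, a partner of the receptor, was 0.47 (0.0138). None of 3 tested epoxide hydrolases, which open P450 epoxides, was called by limma with all mice, and Ephx4 alone had an unadjusted p under 0.05. Without BBR mouse 3 Ephx1 was called (0.78, limma adjusted p = 0.0326). The most abundant, Ephx2, was at 15.5 ± 0.670 against 14.3 ± 2.74 FPKM (SD, n = 3 each; 0.13, limma adjusted p = 0.584). Of the P450 genes named for their product, Ptgis, the prostacyclin synthase of vessel and muscle cells, was at 3.62, 5.38 and 5.50 against 0.65, 2.83 and 3.14 FPKM (0.96, limma adjusted p = 0.126), and Tbxas1, the thromboxane synthase, was not tested.

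In all, 6 of 54 tested partner genes were called, against 8.86% of all genes. Without BBR mouse 1, SASP mouse 1 or SASP mouse 3 limma called 0 of 54, where 1.1%, 1.05% and 0.795% of all genes were called. In these fits 11, 9 and 13 partner genes had an unadjusted limma p under 0.05, and the share of all genes was not counted. Only 1 was called without BBR mouse 2, and Por, Cyb5r3, Dhrs3 and Slc51b remained without SASP mouse 2. All 6 remained without BBR mouse 3, where 25 partner genes and 33.6% of all genes were called.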

How the data were processed

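The colorectal RNA of 6 DSS-treated mice (3 BBR, 3 SASP) was analysed from 1 table of deposited FPKM values, which the authors made with Bowtie2 2.2.5 and RSEM 1.2.12 per the labels, after read filtering with SOAPnuke. RSEM divides reads shared by similar genes by an estimate. The submitters' notes name build mm9, and the gene annotation is not given in the sources used here. The labels name an Illumina kit, whereas the study's methods describe rRNA depletion and 50-base single-end reads for its rectal samples, so the library type is unsettled. No counts were used. Depth was estimated from 31 to 56 genes per library that were detected in that library alone and had transcripts under 1500 bases. Each of their values was taken to stand for 1 read, which was not checked, and the median was used.

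Genes with at least 1 FPKM in at least 3 mice were tested with limma 3.58.1 in R 4.3.3 on log2(FPKM + 1), with a variance trend, no covariate and Benjamini-Hochberg adjustment over all 12072 genes. Nothing in the labels says how the mice were housed or processed, so p-values measure the spread between these samples. The script was tested on simulated data.

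The members and gene lists were chosen with earlier results of these data known. Named were all tested members, with values per mouse for those called, those whose groups did not overlap and the 10 most abundant, members reaching 1 FPKM in any mouse, and of each partner list the called genes and the most abundant. Some genes of these lists are counted but not reported here. Others named were chosen after their values were seen. Shared 50-base stretches were counted in GENCODE transcripts, and promoters came from RefSeq, where Cyp4f17 had no entry. Alternatives were other pseudocounts, filters, scalings, no trend, array weights, an unadjusted threshold and leaving out each mouse.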

Additional observations from a re-analysis of the deposited data

How the results depend on the processing

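The number of P450 genes called was 3 (2 higher, 1 lower) in the reported fit. It was 2 (1 higher, 1 lower) with a pseudocount of 0.1 or 0.01 and with a mean FPKM of at least 5, 4 (3 higher) with quantile normalization, 5 (4 higher) with median-ratio scaling, 1 (1 higher, 0 lower) without the variance trend, 13 (11 higher, 2 lower) with array weights and 8 (7 higher) at an unadjusted p, which 31.8% of all genes passed. With no filter it was 0 of 73 (0 higher, 0 lower), where limma gave 15 an unadjusted p under 0.05. The share of all genes at that p was not counted for this setting. Leaving out 1 mouse gave 0 to 12 called (0 to 11 higher, 0 to 1 lower). The called partner genes were 6, and 2 with no filter, 3 without the trend, 38 with array weights, 17 unadjusted and 0 to 25 without 1 mouse. All genes called were 1069, and 591 with no filter, 1728 with quantile normalization, 1683 with median-ratio scaling, 7126 with array weights and 96 to 4051 without 1 mouse. Array weights ranged from 0.129 for BBR mouse 3 to 5.32 for BBR mouse 1. The median of all genes moved from 0.10 to -0.020 with median-ratio scaling, where the member median was 0.12 and Cyp4f13, Cyp4f17 and Cyp4f40 were at 0.47, 0.59 and -0.83. The member median stayed positive in all alternatives, from 0.03 with no filter to 0.45 without BBR mouse 3.

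Of 22 tested members 15 kept their sign in all alternatives. The sign turned for 7 members. With other settings Cyp2d10 was at 0.062 with quantile normalization, Cyp2d34 at -0.081 and Cyp2j6 at -0.038 with median-ratio scaling, and Cyp2d26 at 0.12 and Cyp4f14 at 0.11 with array weights. Without 1 mouse, Cyp2d10 ranged from -0.40 (BBR mouse 3) to 0.27 (BBR mouse 2), Cyp2d34 from -0.052 (BBR mouse 1) to 0.12 (BBR mouse 3), Cyp2j6 from -0.039 (SASP mouse 3) to 0.21 (SASP mouse 1), Cyp2d26 from -0.98 (BBR mouse 2) to 0.12 (BBR mouse 3), Cyp4f14 from -0.49 (BBR mouse 2) to 0.069 (BBR mouse 3), Cyp2d9 from -0.65 (BBR mouse 3) to 0.16 (BBR mouse 2) and Cyp4f16 from -0.24 (BBR mouse 2) to 0.18 (BBR mouse 3). The cause of these changes was not tested. The called partner genes Por, Cyb5r3, Dhrs3, Acadm and Slc51b kept their sign in all alternatives. Depth limits members under about 0.1 FPKM to a few reads.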
